A study of Mus musculus with 14 samples.

Results

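The MYC, MAX and MXD network was described through 10 genes chosen by name: Myc, Mycn and Mycl; Max; Mga; and Mnt, Mxi1, Mxd1, Mxd3 and Mxd4. They are 10 of the 54446 genes in the deposited RNA-seq tables, and all 10 were among the 18232 genes tested. The cells were E14 mouse embryonic stem (ES) cells grown without feeders in serum with LIF, either wild type (WT) or Tet1/2 double knockout (DKO). The treatment was an mTOR inhibitor (mTORi), which brings ES cells into a dormant state resembling embryonic diapause. The study's methods name INK128 or another inhibitor for ES cells or embryos, and do not say which was used for RNA-seq. WT cells were untreated (0 h) or treated for 24, 72 or 144 h, and DKO cells were untreated or treated for 24 or 72 h, with 2 libraries in each of the 7 groups and 14 libraries in all. The DKO line was made in WT E14 cells with a pair of Cas9 guides in each gene followed by single-cell sorting of clones, so that effects of the deletions and of the line cannot be told apart. The same number of sorted cells went into each RNA extraction, and libraries were made from a fixed mass of total RNA. ERCC spike-in RNA was used, and the step at which it was added is not given in the sources used here.

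Proteins of this network work as pairs. MYC, MYCN and MYCL bind DNA only when paired with MAX, recognise the E-box CACGTG and activate genes of growth and biosynthesis. MNT, MXI1 and the MXD proteins pair with the same MAX, bind the same letters and recruit SIN3 and histone deacetylases, which repress transcription, while MGA brings MAX to the Polycomb complex PRC1.6, known for silencing germline genes in ES cells. Loss of MYC activity in ES cells is known to give a dormant state like that of the diapaused embryo.

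Promoters of the network genes are shown because the network's own E-box lies in 3 of them. The RefSeq window set used here (GRCm38.p6, the assembly of mm10) held no window for Myc. The other 9 of the 10 genes had at least 1 window of 300 bases, reaching from 250 bases before the transcription start to 50 after it. CACGTG, which reads the same on both strands, was found in 3 of their 11 windows, those of Mnt, Mxd4 and Max, and in 7.15% of all 32851 windows. The match is a description of the letters and not of binding. The E-box is in capitals in the sequences below, which run 5′ to 3′ on the gene's strand up to the start (for Max, 10 bases past it, since its E-box spans the start). Mycn, whose plain TPM differed most between the genotypes among the 10, is shown as a promoter without these letters. Windows lie at chr11:74830674-74830923 (plus strand) for Mnt, chr5:34187711-34187960 (minus strand) for Mxd4, chr12:76962239-76962498 (minus strand) for Max and chr12:12941837-12942086 (minus strand) for Mycn.
Mnt: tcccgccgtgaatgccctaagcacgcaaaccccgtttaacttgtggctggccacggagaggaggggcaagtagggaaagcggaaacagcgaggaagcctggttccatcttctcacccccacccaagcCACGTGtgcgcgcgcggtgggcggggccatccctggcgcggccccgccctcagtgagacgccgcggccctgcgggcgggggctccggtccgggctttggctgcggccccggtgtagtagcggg
Mxd4: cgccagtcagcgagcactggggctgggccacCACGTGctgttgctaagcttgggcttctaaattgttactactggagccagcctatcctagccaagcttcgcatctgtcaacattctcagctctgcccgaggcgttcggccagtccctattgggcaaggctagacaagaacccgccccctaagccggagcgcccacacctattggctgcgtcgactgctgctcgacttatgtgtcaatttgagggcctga
Max: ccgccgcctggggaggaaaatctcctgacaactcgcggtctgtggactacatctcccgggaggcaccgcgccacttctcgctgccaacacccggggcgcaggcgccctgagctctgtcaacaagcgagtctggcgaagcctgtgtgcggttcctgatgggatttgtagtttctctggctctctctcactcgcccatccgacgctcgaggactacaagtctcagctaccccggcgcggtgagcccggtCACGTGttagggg
Mycn: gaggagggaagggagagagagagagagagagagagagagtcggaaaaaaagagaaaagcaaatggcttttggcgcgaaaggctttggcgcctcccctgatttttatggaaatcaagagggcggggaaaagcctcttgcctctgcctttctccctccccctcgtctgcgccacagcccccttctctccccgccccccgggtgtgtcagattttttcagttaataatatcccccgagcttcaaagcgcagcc

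Values are TPM, the number of transcripts of a gene, corrected for length, in a fixed total that is the same in every library. Each gene is given on 2 scales. Plain TPM, as deposited, gives a gene's share of the library. Spike-in normalized TPM multiplies each library by a factor between 1 and 2.81 taken from the study's spike-in normalized table, and so also carries the change in total RNA against the spike-in. The median gene fell by 0.83 (log2) in WT cells at 144 h on the spike-in scale, against a median of 0.05 in plain TPM. Fewer cells of a type and less RNA per cell cannot be told apart in such bulk samples. Genes were tested with limma on log2(TPM + 1) across all 14 libraries, and called at a Benjamini-Hochberg adjusted p under 0.05 over all 18232 genes.

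The cells carried the markers of ES cells. The 8 ES cell markers summed to 4126 to 6326 TPM per library. Markers of other lineages were low but not constant. The 6 primitive endoderm markers, all of which were detected, summed to 66.1 and 116 TPM in WT cells at 24 h against 8.47 and 21.7 TPM at 0 h, and ranged from 5.36 to 48.5 TPM in the other 6 groups. The 6 trophectoderm markers ranged from 14.95 to 75.0 TPM and were highest in WT cells at 24 h, with Cdx2, Elf5 and Hand1 each below a mean of 1 TPM. Mesendoderm, neuroectoderm and fibroblast markers summed to at most 2.57, 17.4 and 17.7 TPM. As a check of the genotype, Tet2 lay between 96.0 and 143 TPM in the 8 WT libraries and between 15.9 and 22.2 TPM in the 6 DKO libraries. Tet1 did not separate them as clearly, at 191 to 349 TPM in WT and 147 to 248 TPM in DKO libraries, so the check rests on Tet2. Tet3 lay at 6.04 to 11.3 TPM.

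In untreated WT cells the network genes fell into an abundant and a scarce set. Mycn and Mga had the highest mean plain TPM there, 99.5 and 98.9, and their libraries overlapped. Max followed at 84.3 TPM and Myc at 74.4 TPM, each apart from its neighbour. The dedicated repressors and Mycl were lower by a wide gap. Mnt had 14.6 TPM, Mxi1 8.65 TPM, Mxd3 7.14 TPM and Mycl 6.80 TPM, the last pair overlapping. Mxd4 and Mxd1 were lowest, at 2.69 and 2.63 TPM, and overlapped. Max, the shared partner, and Mga kept nearly the same proportion to each other in all groups, with a mean Mga to Max ratio between 1.08 and 1.18. Over all 14 libraries Myc, Max and Mga never went below 62.9 TPM, and Mycl, Mxi1, Mxd1, Mxd3 and Mxd4 never rose above 13.4 TPM. Mycn went down to 24.5 TPM in DKO at 24 h, and Mnt rose to 31.6 TPM in WT at 144 h. With these genes the sets overlapped over the 14 libraries.

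**Figure D1:**
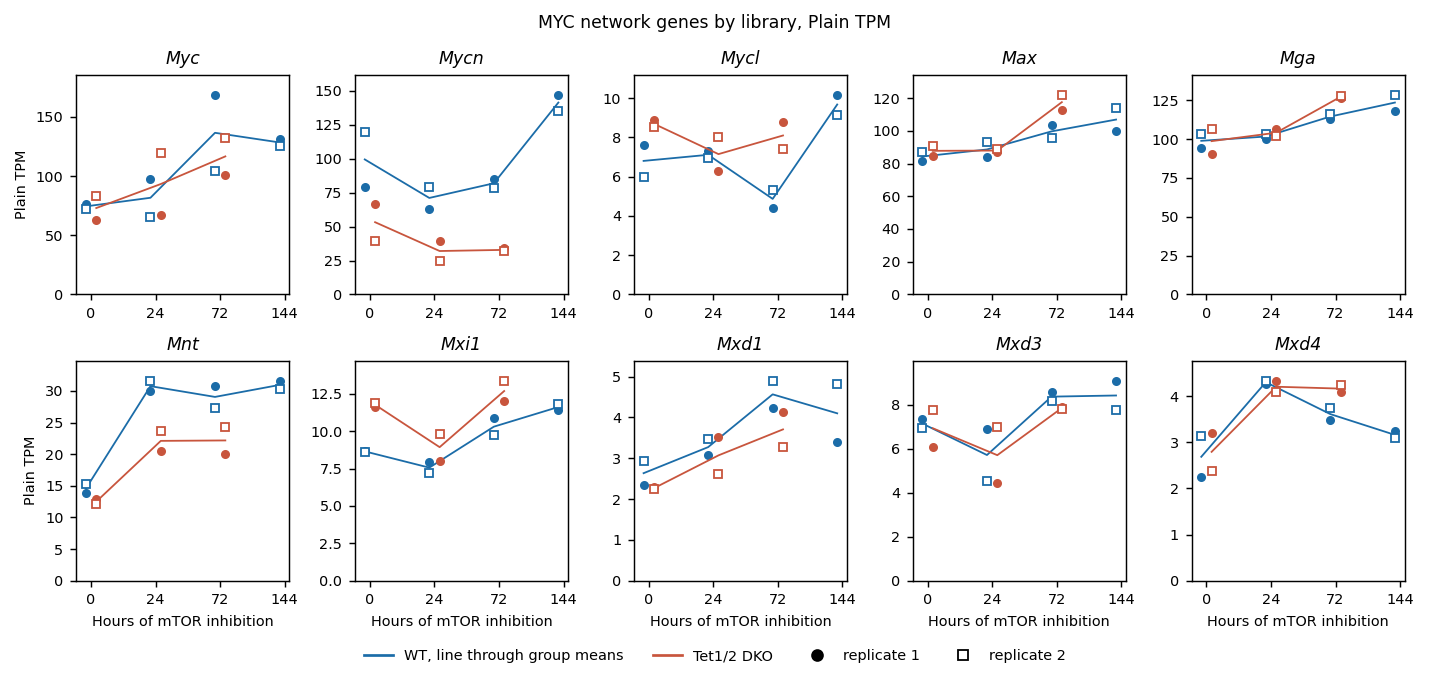
Plain TPM of the 10 genes in each of the 14 libraries (points) against hours of mTORi, drawn at equal steps, with lines through the group means; WT in blue and DKO in red. Mnt stood above its untreated level at every treated time in both genotypes, and Mycn was lower in all 6 DKO libraries than in any WT library at 0 or 72 h.

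Mnt, the most abundant of the dedicated repressors, was the member with the clearest change under mTORi. The gene lies at chr11:74830920-74845725 (mm10, plus strand). In plain TPM, WT cells had 13.8 and 15.3 at 0 h, 30.0 and 31.6 at 24 h, 30.8 and 27.3 at 72 h, then 31.6 and 30.3 at 144 h. DKO cells had 12.9 and 12.1 at 0 h, 20.5 and 23.7 at 24 h, then 20.1 and 24.3 at 72 h. Every treated library was above every untreated library of its genotype. The share of Mnt in the transcriptome rose 2.11-fold, 1.99-fold and 2.12-fold in WT cells at 24, 72 and 144 h, and 1.77-fold at both times in DKO cells. The log2 fold changes with standard errors in WT were 1.03 ± 0.12, 0.95 ± 0.12 and 1.04 ± 0.12 (limma, adjusted p = 2.2e-04, 6.1e-04 and 3.6e-04). In DKO they were 0.77 ± 0.12 at 24 h and 0.77 ± 0.12 at 72 h (limma, adjusted p = 0.0014 and 0.0018). All 5 calls were kept whichever of the 14 libraries was left out, with log2 fold changes between 0.64 and 1.11.

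On the spike-in scale no Mnt change was called without the replicate block. WT libraries had 29.2 and 32.3 spike-in normalized TPM at 0 h, 43.0 and 58.5 at 24 h, 51.0 and 40.7 at 72 h, then 33.8 and 30.3 at 144 h. Levels at 24 and 72 h did not overlap those at 0 h, whereas those at 144 h lay at the untreated level. The log2 fold changes were 0.69 ± 0.29 at 24 h (limma, adjusted p = 0.14), 0.55 ± 0.29 at 72 h (0.24) and 0.06 ± 0.29 at 144 h (0.88). With replicate number as a block within each genotype the rise at 24 h was called (adjusted p = 0.024), and that at 72 h was not (adjusted p = 0.067). In DKO cells the libraries had 36.3 and 28.8 at 0 h, 45.8 and 32.2 at 24 h, then 50.8 and 42.0 at 72 h, with log2 fold changes of 0.24 ± 0.29 (adjusted p = 0.58) and 0.50 ± 0.29 (adjusted p = 0.36). Mnt was thus the only member whose fitted change in WT cells at 144 h was above 0 on this scale, and leaving out replicate 1 at 0 h or at 144 h brought it to -0.013 or -0.020.

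**Figure D2:**
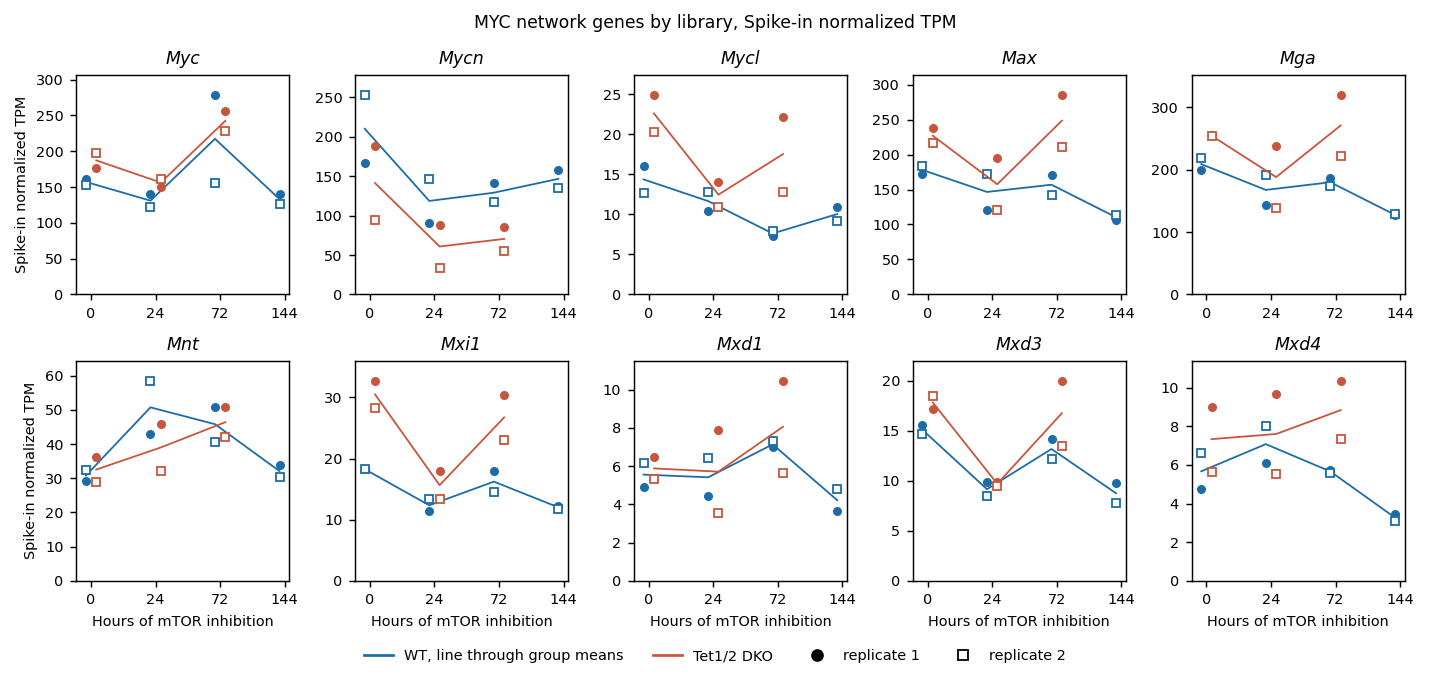
Spike-in normalized TPM of the same 10 genes by library and hours of mTORi, with lines through the group means; WT in blue and DKO in red. WT libraries at 144 h lay below the untreated ones for 9 of the genes, with Mnt at its untreated level.

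The other repressors were scarcer and moved less uniformly. Mxi1 lies at chr19:53310506-53375810 (plus strand). Its plain TPM was 8.66 and 8.63 in WT at 0 h, 7.94 and 7.18 at 24 h, 10.8 and 9.75 at 72 h, then 11.4 and 11.8 at 144 h. In DKO cells it was 11.6 and 11.9 at 0 h, 8.03 and 9.83 at 24 h, then 12.0 and 13.4 at 72 h. In each genotype the 24 h libraries were the lowest. The fall in DKO cells at 24 h was called on the spike-in scale, from 32.7 and 28.3 to 17.9 and 13.3 (log2 fold change -0.93 ± 0.30, limma adjusted p = 0.037), and it was also called in plain TPM (-0.37 ± 0.12, adjusted p = 0.049). These calls were narrow, since the former was kept in 5 and the latter in 1 of the 14 fits that each left out 1 library, with adjusted p reaching 0.26 in both. At 144 h Mxi1 in WT cells was called higher in plain TPM (0.39 ± 0.12, adjusted p = 0.039, kept in 8 of 14 such fits), while its spike-in log2 fold change was -0.57 ± 0.30 (adjusted p = 0.12, and 0.029 with the replicate block).

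Mxd1, Mxd3 and Mxd4, at chr6:86647042-86669161, chr13:55325168-55329823 and chr5:34173883-34187720 (all minus strand), belong to the MXD family, whose members are often induced as cells leave the cycle, with Mxd3 known instead for expression in S phase. Mxd1 ranged from 2.24 to 4.89 plain TPM and was called higher in WT at 72 h, from 2.33 and 2.93 to 4.23 and 4.89 (log2 fold change 0.62 ± 0.19, limma adjusted p = 0.036, kept in 10 of 14 fits leaving out 1 library). Mxd4 ranged from 2.24 to 4.33 plain TPM and was called higher in WT at 24 h, from 2.24 and 3.13 to 4.27 and 4.33 (0.54 ± 0.16, limma adjusted p = 0.027, kept in 11 of 14). Neither was called on the spike-in scale at those times, where the log2 fold changes were 0.32 ± 0.38 for Mxd1 (adjusted p = 0.64) and 0.28 ± 0.36 for Mxd4 (adjusted p = 0.65). With the replicate block, plain TPM also gave calls for Mxd1 in WT at 144 h (0.48, adjusted p = 0.027) and DKO at 72 h (0.52, adjusted p = 0.020), and for Mxd4 in DKO at 24 h (0.46, adjusted p = 0.045) and 72 h (0.45, adjusted p = 0.046), all higher. Mxd3 ranged from 4.42 to 9.09 plain TPM with no call in plain TPM. With the replicate block on the spike-in scale, Mxd3 was called lower in WT at 24 h (-0.67, adjusted p = 0.035) and 144 h (-0.73, adjusted p = 0.0093) and in DKO at 24 h (-0.81, adjusted p = 0.0091), and Mxd4 lower in WT at 144 h (-0.63, adjusted p = 0.029). Mxd3 overlaps Prelid1 on the opposite strand, which had 76.0 to 157 TPM. A strand setting for the quantification was not given in the sources used here, so the share of Mxd3 reads that came from Prelid1 was not tested.

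Myc, the family member most widely tied to growth, lies at chr15:61985391-61990374 (plus strand). In plain TPM, WT cells had 76.3 and 72.5 at 0 h, 97.8 and 65.6 at 24 h, 169 and 104 at 72 h, then 131 and 126 at 144 h. DKO cells had 62.9 and 83.1 at 0 h, 67.4 and 119 at 24 h, then 101 and 132 at 72 h. Libraries at 72 h lay above the untreated ones in both genotypes, as did those of WT at 144 h, and those at 24 h overlapped them. Without the replicate block no Myc change passed the test on either scale. The largest log2 fold changes in plain TPM were 0.83 ± 0.30 in WT at 72 h (limma, adjusted p = 0.068, 95% interval 0.17 to 1.49), 0.78 ± 0.30 at 144 h (adjusted p = 0.077) and 0.67 ± 0.30 in DKO at 72 h (adjusted p = 0.12). With the block these 3 rises in plain TPM were called (adjusted p = 0.0066, 0.0078 and 0.016). Spike-in values gave Myc a log2 fold change at 144 h of -0.24 ± 0.27 (adjusted p = 0.47, 95% interval -0.81 to 0.33), where all genes had a median of -0.83. At 24 h it was -0.26 ± 0.27 in WT and -0.26 ± 0.27 in DKO (limma, adjusted p = 0.57 and 0.53). At 72 h it was 0.40 ± 0.27 and 0.37 ± 0.27 (adjusted p = 0.37 and 0.49). The DKO libraries at 72 h (257 and 228) lay above the untreated ones (177 and 197), and those of WT overlapped.

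Mycn, a close relative that is abundant in ES cells, lies at chr12:12936093-12941914 (minus strand). In plain TPM, WT cells had 79.0 and 120 at 0 h, 63.2 and 79.0 at 24 h, 85.4 and 78.5 at 72 h, then 147 and 136 at 144 h. DKO cells had 67.0 and 39.5 at 0 h, 39.5 and 24.5 at 24 h, then 33.9 and 31.8 at 72 h. The WT libraries were highest at 144 h, whereas the treated DKO libraries were at or below the lower untreated one. On the spike-in scale DKO cells went from 189 and 93.9 at 0 h to 88.3 and 33.3 at 24 h, a called fall (log2 fold change -1.28 ± 0.40, limma adjusted p = 0.032, and 6.7e-04 with the replicate block). Leaving out DKO replicate 1 at 0 h or replicate 2 at 24 h ended that call, and the log2 fold change ranged from -1.97 to -0.59 over the 14 fits. It also ended without the filter on low values (adjusted p = 0.19) and without the mean-variance trend (0.054). At 72 h in DKO it was -0.94 ± 0.40 (adjusted p = 0.20, and 0.014 with the block). In WT it was -0.83 ± 0.40 at 24 h (adjusted p = 0.19, and 0.018 with the block), -0.67 ± 0.40 at 72 h (0.31, and 0.051 with the block) and -0.49 ± 0.40 at 144 h (0.31, and 0.091 with the block). In plain TPM the log2 fold changes in DKO at 24 and 72 h were -0.71 ± 0.28 (adjusted p = 0.087, and 0.024 with the block) and -0.63 ± 0.28 (adjusted p = 0.11, and 0.035 with the block), and no Mycn change was called in WT.

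Mycl, the least abundant of the family, lies at chr4:122995652-123002485 (plus strand). It ranged from 4.39 to 10.2 plain TPM. The WT libraries at 72 h were lowest, at 4.39 and 5.34, and those at 144 h highest, at 10.2 and 9.16. No Mycl change was called on either scale without the block. With it, on the spike-in scale, Mycl was called lower in WT at 72 h (-0.83, adjusted p = 0.014) and in DKO at 24 h (-0.81, adjusted p = 0.011).

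Max, the obligate partner, and Mga lie at chr12:76937269-76962201 (minus strand) and chr2:119897228-119969581 (plus strand). Plain TPM of Max in WT cells was 81.5 and 87.1 at 0 h, 84.2 and 92.9 at 24 h, 104 and 95.6 at 72 h, then 99.9 and 114 at 144 h. In DKO cells it was 84.5 and 91.0, then 87.1 and 88.8, then 113 and 122. Mga in WT cells had 94.4 and 103, then 99.8 and 103, then 113 and 116, then 118 and 129, and in DKO cells 90.6 and 107, then 106 and 102, then 126 and 128. Both genes thus stood above their untreated range at 72 h in both genotypes and at 144 h in WT. The calls on the 2 scales had opposite signs at 144 h. In plain TPM Max rose by 0.34 ± 0.09 and Mga by 0.32 ± 0.09 on the log2 scale (limma, adjusted p = 0.023 and 0.027), and in DKO at 72 h by 0.42 ± 0.09 and 0.37 ± 0.09 (adjusted p = 0.010 and 0.015). On the spike-in scale in WT at 144 h Max changed by -0.68 ± 0.28 and Mga by -0.70 ± 0.28 (adjusted p = 0.049 and 0.045), 0.15 and 0.13 above the median of all genes. The spike-in calls ended without the filter on low values (adjusted p = 0.10 for both) and without the mean-variance trend (0.077 and 0.073). They were kept in only 5 and 6 of the 14 fits that left out 1 library, and the plain calls at 144 h in 12 and 11 of 14. Max shares its strand and part of its span with Gm47218, which had 2.78 to 6.92 TPM.

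**Figure D3:**
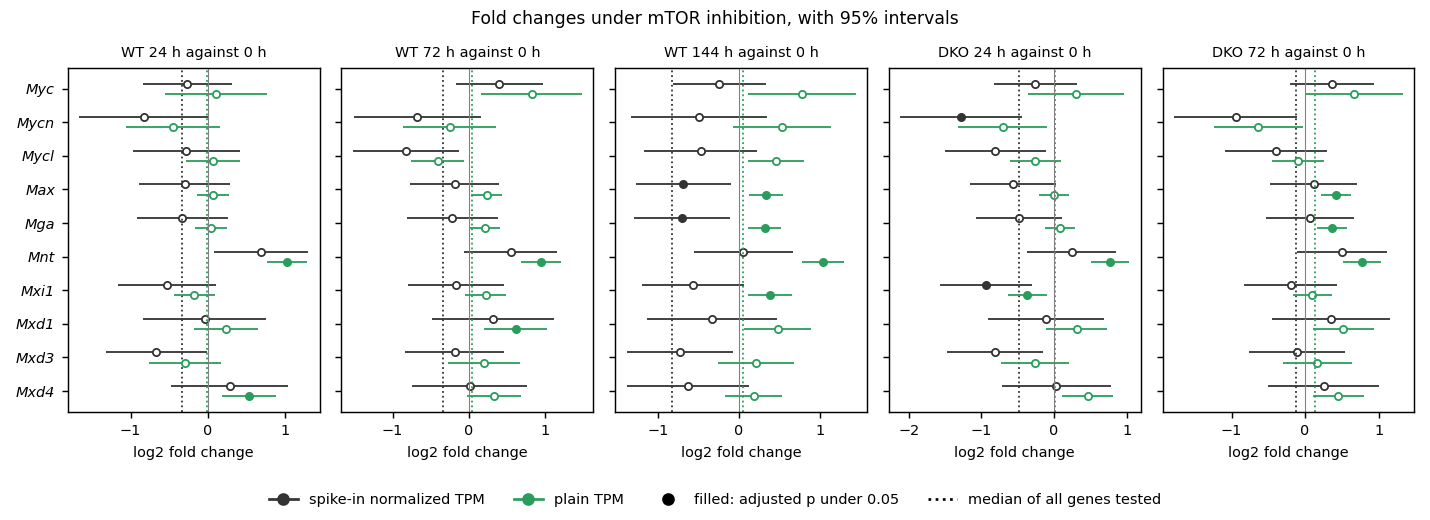
Log2 fold change with its 95% interval for the 10 genes in the 5 comparisons of mTORi against untreated cells, on the spike-in (black) and plain TPM (green) scales; filled points passed the adjusted p threshold, and dotted lines mark the median of all genes tested. Mnt was filled in all 5 plain TPM panels, and in WT at 144 h every gene lay to the right of the all-gene median on both scales.

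Counted over the network, few members passed the test on the spike-in scale, and the background of calls has to be read beside them. In WT at 144 h 2 of 10 were called, Max and Mga, both lower, where 50.5% of all genes were called lower and 0.461% higher. In DKO at 24 h 2 of 10 were called lower, Mycn and Mxi1, against 18.7% of all genes. No member was called in WT at 24 h, WT at 72 h or DKO at 72 h, where 9.98%, 8.29% and 3.66% of all genes were called in either direction by limma, and 2, 1 and 1 members had an unadjusted p under 0.05. The median log2 fold change of the 10 was -0.53 in WT at 144 h (all genes -0.83), -0.29 at 24 h (all genes -0.33) and -0.18 at 72 h (all genes -0.33), and -0.52 in DKO at 24 h (all genes -0.49) and 0.09 at 72 h (all genes -0.12). All 10 members were above the median gene in WT at 144 h.

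With the replicate block within each genotype the spike-in counts were larger. Members called lower numbered 2 in WT at 24 h (Mycn and Mxd3, against 25.7% of all genes) beside 1 higher (Mnt, against 4.48%), 1 in WT at 72 h (Mycl, 25.4%), 5 in WT at 144 h (Max, Mga, Mxi1, Mxd3 and Mxd4, 66.3%), 5 in DKO at 24 h (Mycn, Mycl, Max, Mxi1 and Mxd3, 38.1%) and 1 in DKO at 72 h (Mycn, 13.2%). In plain TPM the calls were mostly higher. Members called higher numbered 2 in WT at 24 h (Mnt and Mxd4, against 15.8% of all genes), 2 at 72 h (Mnt and Mxd1, 12.6%) and 4 at 144 h (Mnt, Max, Mga and Mxi1, against 15.6% higher and 11.7% lower). In DKO they numbered 1 at 24 h (Mnt, 11.6%), beside 1 lower (Mxi1, 13.3%), and 3 at 72 h (Mnt, Max and Mga, 17.2%). With the block in plain TPM, 2 members were called higher in WT at 24 h (against 19.3% of all genes), 3 at 72 h (16.8%) and 6 at 144 h (19.9%). In DKO 2 were called higher (15.3%) and 2 lower (16.6%) at 24 h, and 6 higher (23.5%) and 1 lower (12.3%) at 72 h. The 24 h libraries of WT were also those with the highest primitive endoderm and trophectoderm marker sums given above, whose part in the 24 h results was not tested.

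Between the genotypes, Mycn had the widest gap of the 10 genes at each time in plain TPM. On the spike-in scale Mxi1 differed more at 0 h (0.71 ± 0.30, limma adjusted p = 0.57) and Mycl more at 72 h (1.06 ± 0.33, adjusted p = 0.14), neither of them called. Mean plain TPM of Mycn in DKO was 0.535 times that of WT at 0 h, 0.450 times at 24 h and 0.401 times at 72 h, and the DKO libraries were below the WT libraries at each time. The log2 differences were -0.91 ± 0.28, -1.16 ± 0.28 and -1.29 ± 0.28 (limma, adjusted p = 0.17, 0.076 and 0.034). The difference was therefore called at 72 h in plain TPM, where 0.845% of all genes were called lower, and that call was kept in 8 of 14 fits leaving out 1 library. It ended without either library of WT at 72 h, of WT at 144 h or of DKO at 72 h, with adjusted p up to 0.17. After spike-in normalization the Mycn differences were -0.62 ± 0.40, -1.07 ± 0.40 and -0.89 ± 0.40, none of which was called (adjusted p = 0.62, 0.84 and 0.21). Spike-in levels of DKO libraries were below those of WT at 24 and 72 h and overlapped at 0 h.

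No other member was called between the genotypes. On the spike-in scale 0.0439% of all genes were called at 0 h, 0.0439% at 24 h and 0.329% at 72 h, in either direction, and 1, 1 and 4 members had an unadjusted p under 0.05. In plain TPM 0.598% and 1.37% of all genes were called at 0 and 24 h and no member was, with 2 and 2 members at an unadjusted p under 0.05. Mycl at 72 h came near the threshold, with 8.76 and 7.43 plain TPM in DKO against 4.39 and 5.34 in WT (log2 difference 0.63, limma adjusted p = 0.053, 95% interval 0.28 to 0.98). Its spike-in levels were 22.2 and 12.8 in DKO against 7.26 and 7.96 in WT, without overlap, and the difference given above had a 95% interval of 0.36 to 1.75. Mnt was lower in DKO than in WT libraries at each time in plain TPM, with mean ratios of 0.858, 0.719 and 0.763 and log2 differences of -0.21, -0.46 and -0.38 (adjusted p = 0.48, 0.090 and 0.10). After spike-in normalization they were 0.07, -0.38 and 0.02 (the smallest adjusted p was 0.93). Max, Mga and Myc gave spike-in differences within 0.65 of 0.

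The response to mTORi was also compared between the genotypes directly. The difference in response (DKO change minus WT change) on the spike-in scale was -0.54 to 0.01 over the 10 genes at 24 h, and -0.27 to 0.44 at 72 h. None passed the limma test and none had an unadjusted p under 0.05, where 0.00548% of all genes were called at 24 h and 0% at 72 h. In plain TPM the range was -0.32 to 0.20 at 24 h and -0.39 to 0.31 at 72 h, again with no call and no unadjusted p under 0.05, beside 0% and 0% of all genes. A response that differed between WT and DKO cells was not detectable for any member with 2 libraries in each group.

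Ratios within a library carry no normalization factor, and here they set the activators against the repressors. Summed Myc, Mycn and Mycl over summed Mnt, Mxi1, Mxd1, Mxd3 and Mxd4 was 4.73 and 5.38 in WT libraries at 0 h, 3.23 and 2.97 at 24 h, 4.46 and 3.49 at 72 h, then 4.92 and 4.68 at 144 h. In DKO it was 3.84 and 3.60 at 0 h, 2.78 and 3.21 at 24 h, then 2.99 and 3.23 at 72 h. The WT ratio was lowest at 24 h, and at 144 h its libraries overlapped the untreated ones, with means of 5.05 ± 0.46, 3.10 ± 0.18, 3.98 ± 0.68 and 4.80 ± 0.17 (SD, n = 2 each). The DKO means were 3.72 ± 0.17, 2.99 ± 0.31 and 3.11 ± 0.17, so that untreated DKO libraries lay below untreated WT libraries and treated DKO below untreated DKO. The smallest two-sided p that an exact permutation test of 2 libraries against 2 can give is 0.333, and no model was fitted to the ratios, so these differences were not tested. Counting Mga among the repressors, as its complex also silences genes, lowered the means to between 0.885 and 1.54 and changed the pattern. WT libraries at 144 h then had 1.63 and 1.45, above the untreated 1.26 and 1.42. DKO libraries at 24 h had 0.769 and 1.02 and those at 72 h 0.825 and 0.946, and both overlapped the untreated 1.09 and 0.917.

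The make-up of each sum shifted as well. Mnt made up 40.8% ± 0.87 (SD, n = 2) of the repressor sum in WT at 0 h, 59.6% ± 3.06 at 24 h, 51.9% ± 1.78 at 72 h, then 53.1% ± 0.96 at 144 h. The DKO shares were 34.5% ± 1.69, 50.2% ± 0.01 and 43.8% ± 2.98 at 0, 24 and 72 h. Mnt relative to its partner Max was 0.170 and 0.176 in WT at 0 h and between 0.266 and 0.356 in the treated WT libraries. In DKO it was 0.152 and 0.133 at 0 h and between 0.178 and 0.268 under treatment. The treated and untreated ranges did not overlap in either genotype. Mycn relative to Myc was 1.03 and 1.66 in WT at 0 h, 0.647 and 1.20 at 24 h, 0.505 and 0.753 at 72 h, then 1.12 and 1.08 at 144 h. In DKO it was 1.07 and 0.476, then 0.586 and 0.206, then 0.335 and 0.241. Myc was thus the more abundant of the pair in every treated DKO library and in 1 of 2 untreated ones, while Mycn was the more abundant in both WT libraries at 144 h.

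**Figure D4:**
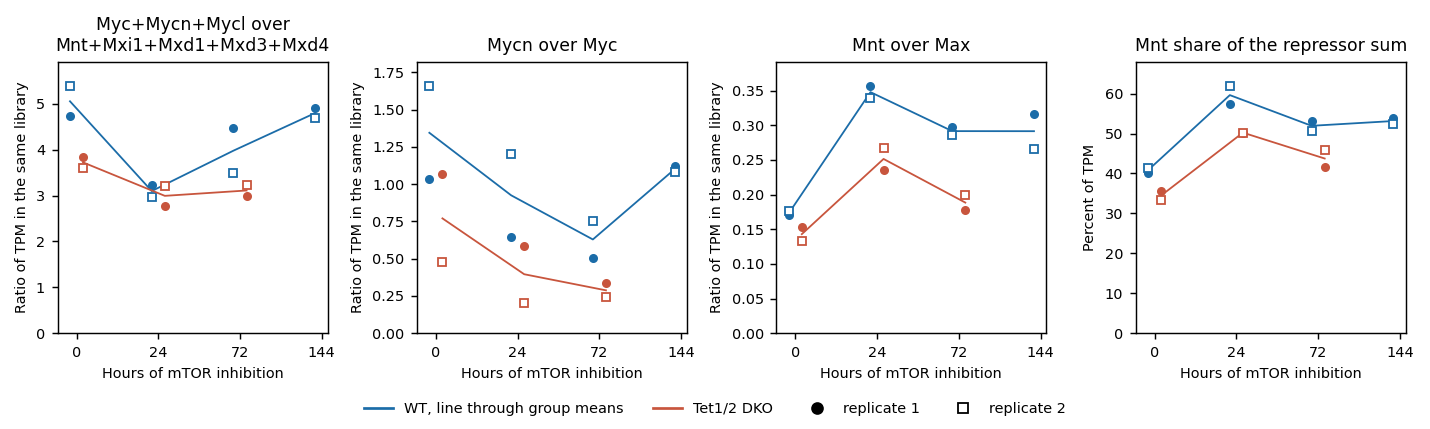
Ratios of TPM within each library (points) against hours of mTORi, drawn at equal steps, with lines through group means: summed MYC genes over summed repressors, Mycn over Myc, Mnt over Max, and the percent of the repressor sum that is Mnt. The mean WT activator to repressor ratio stood at 5.05 in untreated cells, 3.10 after 24 h and 4.80 after 144 h. The DKO mean was 3.72 in untreated cells, 2.99 after 24 h and 3.11 after 72 h, and DKO cells were not sampled at 144 h.

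By a fixed rule, the genes whose pattern over the 7 group means was most like each MYC gene were named, as a description over 7 points that share libraries. On log2 spike-in values centred on the median gene of each library, Myc was most like Col6a5, Snn and Capn3 (Pearson's r = 0.988, 0.987 and 0.984). Mycn was most like Cldn6, Proser3 and Eif5a2 (r = 0.996, 0.989 and 0.985). Mycl was most like Rnaset2b, Ncapg and Gch1 (r = 0.988, 0.968 and 0.941). These are the highest values among 13824 genes.

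The parallel MLX arm uses MLX in place of MAX and pairs it with the glucose sensors MLXIP and MLXIPL. Mlx was lower on both scales in WT at all 3 times and in DKO at 24 h. Plain TPM of Mlx was 34.0 and 33.0 in WT at 0 h, 19.1 and 18.2 at 24 h, 24.2 and 20.5 at 72 h, then 20.9 and 20.3 at 144 h. In DKO it was 34.6 and 34.9, then 18.5 and 17.9, then 24.2 and 24.3. Every treated library was below every untreated one. In DKO at 72 h the fall was called in plain TPM (-0.50, limma adjusted p = 0.0038), and on the spike-in scale it was called with the replicate block (-0.81, adjusted p = 0.015) and not without it (adjusted p = 0.14). In WT at 144 h the log2 fold change was -1.68 ± 0.31 on the spike-in scale and -0.67 in plain TPM (limma, adjusted p = 4.9e-04 and 7.5e-04). Mlxip was called lower on the spike-in scale (-0.81 ± 0.30, adjusted p = 0.033) and not called in plain TPM (0.17, adjusted p = 0.25). Mlxipl had -0.74 ± 0.39 (adjusted p = 0.11, and 0.029 with the block), and 0.12 in plain TPM (adjusted p = 0.71). Both spike-in values lay near the median of all genes there, -0.83 (plain TPM 0.05). On the spike-in scale 50.5% of all genes were called lower (66.3% with the block), and in plain TPM 11.7%. Between the genotypes at 72 h none of the 3 was called, with spike-in log2 differences of 0.52 ± 0.31 for Mlx, 0.67 ± 0.30 for Mlxip and 1.06 ± 0.39 for Mlxipl (adjusted p = 0.27, 0.21 and 0.17). On that scale 0.329% of all genes were called in either direction, and the median gene differed by 0.49.

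Known MYC target genes of growth were the list whose median lay farthest below that of all genes in WT at 144 h, among the 8 lists. Of 50 listed, nucleolar, metabolic and cell cycle genes, 48 were called lower and 0 higher in WT at 144 h on the spike-in scale, where 50.5% of all genes were called lower and 0.461% higher, with a median log2 fold change of -1.28 against -0.83 for all genes. In plain TPM 14 were called lower and 0 higher, beside 11.7% and 15.6% of all genes, with a median of -0.26 against 0.05. Rcc1, a chromatin-bound nucleotide exchange factor, fell by 1.89 ± 0.29 on the log2 scale (limma, adjusted p = 1.6e-04), from 270 and 294 to 80.0 and 70.7 spike-in normalized TPM, and in plain TPM by 0.87 (adjusted p = 1.3e-04). Ldha, lactate dehydrogenase, fell by 1.70 ± 0.32 (adjusted p = 5.6e-04; plain TPM -0.67, adjusted p = 0.031). At 24 h 23 of the 50 were called lower in WT and 37 in DKO on the spike-in scale, where 8.73% and 18.7% of all genes were, and the list medians were -0.86 and -1.04 (all genes -0.33 and -0.49). At 72 h 22 were called lower in WT and 5 in DKO, beside 7.6% and 2.95% of all genes, with medians of -0.82 and -0.62 (all genes -0.33 and -0.12). Under the replicate block 38 (WT) and 48 (DKO) genes were called lower at 24 h, beside 25.7% and 38.1% of all genes. At 72 h the block gave 40 (WT) and 23 (DKO), beside 25.4% and 13.2%. In plain TPM the counts of the 2 genotypes were closer, with 33 (WT) and 35 (DKO) called lower at 24 h, beside 14.1% and 13.3% of all genes, and 26 (WT) and 22 (DKO) at 72 h, beside 11.4% and 9.06% (list medians -0.39 and -0.31). In DKO against WT at 72 h none was called on the spike-in scale, where 0.329% of all genes were called in either direction (median 0.53, all genes 0.49). In plain TPM Ccnd2, a D-type cyclin, and Eno1, a glycolytic enolase, were called lower (-0.94 and -0.59, adjusted p = 0.045 and 0.034), beside 0.845% of all genes. The list thus lay below the median gene at all 5 treated points.

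Cofactors that work with the network were counted against the same shares of all genes in WT at 144 h, which were 50.5% lower on the spike-in scale (median -0.83), and 15.6% higher and 11.7% lower in plain TPM (median 0.05). Of 15 MYC cofactors, 14 were called lower on the spike-in scale (median -0.92) and in plain TPM 3 were higher and 2 lower (median 0.10). Ruvbl1, an ATPase of chromatin complexes, and Actl6a, an actin-like subunit, fell most (-1.60 ± 0.27 and -1.57 ± 0.28, limma adjusted p = 2.8e-04 and 3.9e-04; plain TPM -0.57 and -0.55, adjusted p = 0.0090 and 0.0056). Bin1, a MYC-interacting adaptor, was the cofactor called higher in DKO at 72 h, at 32.2 and 30.0 against 11.5 and 7.21 spike-in normalized TPM in WT (log2 difference 1.67 ± 0.30, adjusted p = 0.027; plain TPM 1.22, adjusted p = 0.015), where 0.302% of all genes were called higher on the spike-in scale and 3.17% in plain TPM. Actl6a was called lower in that comparison in plain TPM (-0.59, adjusted p = 0.025), beside 0.845% of all genes. Among the 15 cofactors the largest DKO against WT log2 difference was already 1.38 in untreated cells (plain TPM 1.05). None was called there, beside 0.0439% of all genes (plain TPM 0.598%). The largest difference in response of a cofactor at 72 h was 0.28 (plain TPM 0.17). Of 11 SIN3 and HDAC corepressors, 8 were called lower on the spike-in scale (median -1.14) and 3 lower and 3 higher in plain TPM (median -0.12). Sap18 and Rbbp4, a SIN3-associated protein and a histone-binding subunit, fell most (-1.58 ± 0.31 and -1.42 ± 0.30, adjusted p = 9.1e-04 and 0.0014). In plain TPM Rbbp4 was called lower (-0.39, adjusted p = 0.017), and Sap18 had -0.57 and was not called (adjusted p = 0.14), with libraries that did not overlap (35.9 and 21.1 against 18.1 and 18.2). Of 17 genes of MYC protein turnover 9 were called lower on the spike-in scale (median -0.83), which is near the share and at the median of all genes, and in plain TPM 7 were higher and 3 lower. Aurka, a mitotic kinase that stabilises MYCN, and Skp2, a ubiquitin ligase subunit, fell most (-1.70 ± 0.28 and -1.59 ± 0.28, adjusted p = 2.7e-04 and 3.7e-04; plain TPM -0.68 and -0.58, adjusted p = 6.6e-04 and 0.0050).

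Partners of MGA in PRC1.6 and the germline genes known to be silenced by it were measured next. Of 13 partners, 10 were called lower in WT at 144 h on the spike-in scale (median -1.03), beside 50.5% of all genes (median -0.83). In plain TPM 0 were lower and 2 higher, the latter near the 15.6% of all genes. L3mbtl2 and Pcgf6, defining subunits of this complex, fell most on the spike-in scale (-1.38 ± 0.25 and -1.34 ± 0.31, limma adjusted p = 5.5e-04 and 0.0025), and were not called in plain TPM (-0.36 and -0.33, adjusted p = 0.15 and 0.095). Of 20 germline genes 19 were tested. In WT at 144 h 3 were called lower and 0 higher on the spike-in scale (median -0.57), a smaller share than the 50.5% of all genes called lower, and 9 were called lower with the replicate block, where 66.3% of all genes were. In plain TPM 5 were higher and 0 lower, beside 15.6% and 11.7% of all genes (median 0.37 against 0.05). Tex101 and Stk31 fell most on the spike-in scale (-1.36 ± 0.35 and -1.24 ± 0.49, adjusted p = 0.0044 and 0.041) and were not called in plain TPM (-0.54 and -0.25, adjusted p = 0.12 and 0.73). In DKO against WT at 72 h 2 of the 19 were called higher on the spike-in scale and 5 in plain TPM, where 0.302% and 3.17% of all genes were, with list medians of 0.94 and 0.52 beside 0.49 and 0.11 for all genes. Untreated cells already had list medians of 0.79 and 0.49 between the genotypes on these scales, beside 0.29 and 0.02 for all genes. Stra8, the inducer of meiosis, had 547 and 341 spike-in normalized TPM in DKO against 51.6 and 74.7 in WT (log2 difference 2.78 ± 0.56, adjusted p = 0.041; plain TPM 2.35, adjusted p = 0.037). Tdrkh, of the piRNA pathway, had 20.9 and 13.4 against 5.75 and 3.36 (1.71 ± 0.37, adjusted p = 0.047; plain TPM 1.24, adjusted p = 0.031). Mga itself differed by 0.56 ± 0.28 in that comparison and was not called (adjusted p = 0.23).

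Signals known to act upstream of Myc in ES cells, such as the LIF, Wnt, BMP and ERK pathways, held 12 listed genes. In WT at 144 h 1 was called higher and 6 lower on the spike-in scale (median -0.70), beside 0.461% and 50.5% of all genes. In plain TPM 4 were higher and 1 lower, beside 15.6% and 11.7% of all genes (median 0.29). Lef1, a transcription factor of the Wnt pathway, was the gene that rose, from 29.6 and 31.7 to 64.4 and 63.6 spike-in normalized TPM (log2 fold change 1.04 ± 0.32, limma adjusted p = 0.012; plain TPM 2.02, adjusted p = 2.5e-04). Its relative Tcf7l1, a repressor, fell on both scales (-1.55 ± 0.32, adjusted p = 0.0011; plain TPM -0.54, adjusted p = 0.0051). In DKO against WT at 72 h none of the 12 was called on the spike-in scale (median 0.49, as for all genes), where 0.329% of all genes were. In plain TPM Lef1 and Tcf7l1 were called lower in DKO (-1.0 and -0.49, adjusted p = 0.034 and 0.037), beside 0.845% of all genes. Pim1, a kinase of the MYC protein turnover list, was also called lower there (-0.51, adjusted p = 0.043), and Yaf2, of the PRC1.6 partners, higher (0.76, adjusted p = 0.034). Ccnd2, Eno1, Pim1 and Yaf2, and the plain TPM calls of Actl6a, Lef1 and Tcf7l1 at 72 h, were named after their values were seen.

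**Figure D5:**
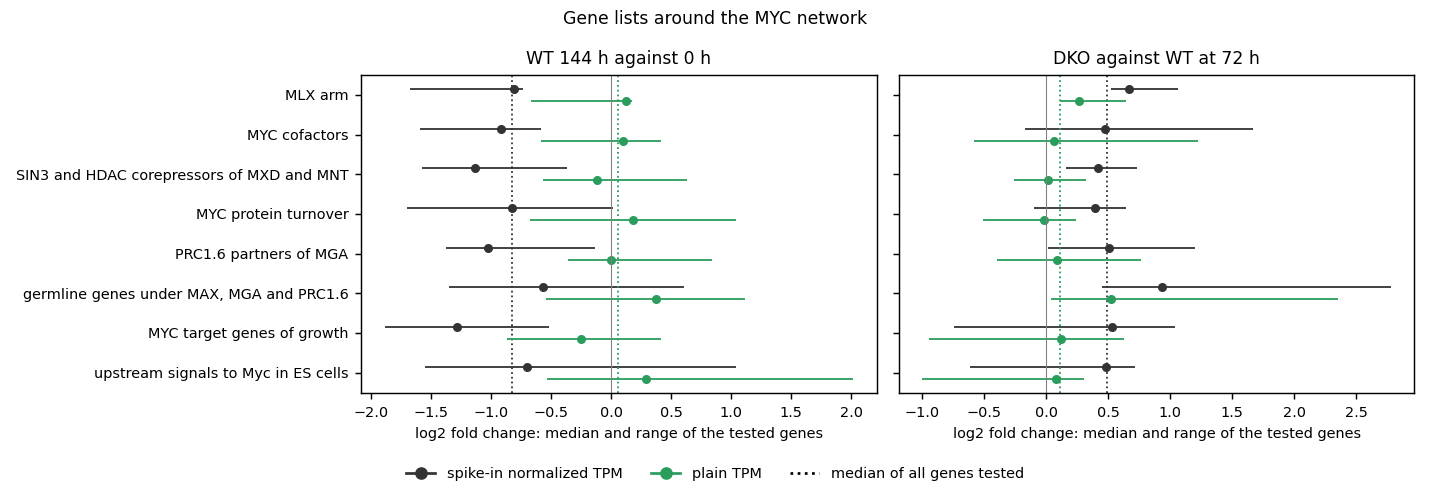
Median (point) and range (line) of log2 fold changes over the tested genes of the 8 lists, in WT at 144 h against 0 h and in DKO against WT at 72 h, on the spike-in (black) and plain TPM (green) scales; dotted lines mark the median of all genes tested. MYC target genes of growth lay below the all-gene median in WT at 144 h on both scales, and the germline genes lay above it in both comparisons.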

How the data were processed

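RNA-seq was measured in 14 libraries of sorted E14 ES cells (WT and Tet1/2 DKO), prepared with ribosomal RNA depletion from total RNA with ERCC spike-in. Per the labels and the study's methods, the authors trimmed reads with cutadapt 2.4, aligned them to mm10 with STAR and quantified GENCODE transcripts with StringTie. The submitters' processing notes give STAR 2.7.3a and StringTie 2.0, and the study's methods give other versions of both. The deposited values are TPM per gene, which the authors computed without spike-in normalization. TPM holds no read depth, so no counting interval is given, and the number of libraries limits the precision. No library was identical to another.

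TPM were summed per gene identifier. A spike-in factor per library was taken as the median ratio of the study's spike-in normalized supplementary table to the deposited TPM, over genes of at least 1 TPM among the 1999 entries read; only the factor was used. The 18232 genes averaging 1 or more on the spike-in scale were tested on log2(TPM + 1) with limma 3.58.1 (R 4.3.3), with a mean-variance trend and 7 group terms, and p was adjusted by Benjamini-Hochberg over all of them; fold changes on this scale understate changes of low genes. The design assumed the spike-in scale, and plain TPM was fitted with the same genes. The code was tested on simulated data. The labels do not say whether replicates were separate cultures for each group, so p-values measure the spread between these samples. Time points of 1 replicate were processed in parallel per the study's reporting. Replicate deviations correlated positively within WT (0.062 to 0.40) and DKO (0.22 to 0.34). Between the genotypes they were mostly inverse (10 of 12 below 0, range -0.50 to 0.12). A replicate block within each genotype was therefore the paired alternative, and it was not fitted to DKO against WT.

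Members and gene lists were chosen with earlier results of these data known. Named were all 10 members; from each list, in WT at 144 h against 0 h and DKO against WT at 72 h, up to 2 rises and 2 falls of the largest size among called genes whose libraries did not overlap (lists of at most 3 genes whole); 3 genes most like each MYC gene; and the Tet genes. A listed gene that this rule names is not reported here. Alternatives were plain TPM, a pseudocount of 0.1, no filter, no trend, the block, and leaving out each library, where the lone library of a group is taken to vary like the other groups. Promoter windows came from RefSeq. Figures used matplotlib 3.10.9.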

Additional observations from a re-analysis of the deposited data

How the results depend on the processing

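The scale and the replicate block within each genotype each moved 5 of the counts of members called, out of 10 and 7 that could be fitted. In plain TPM the count of members called was 2, 2, 4 and 3 in WT at 24, 72 and 144 h and DKO at 72 h (0, 0, 2 and 0 on the spike-in scale) and 1 in DKO against WT at 72 h (0). Log2 fold changes in WT at 144 h changed sign in plain TPM, to 0.78 for Myc, 0.53 for Mycn, 0.46 for Mycl, 0.34 for Max, 0.32 for Mga, 0.39 for Mxi1, 0.48 for Mxd1, 0.21 for Mxd3 and 0.19 for Mxd4, as did Max in DKO at 24 h (0.0039) and Mnt in DKO against WT at 0 h (-0.21) and 72 h (-0.38). The shifts follow from the spike-in factors, which for example were 2.11 in both WT libraries at 0 h and 1.07 and 1 in those at 144 h. With the replicate block within each genotype (paired), 3, 1, 5, 5 and 1 members were called in WT at 24, 72 and 144 h and DKO at 24 and 72 h; the block across all libraries and the pseudocount of 0.1 left all 10 counts within 1.5 times. Without the filter or without the trend 1 member was called in WT at 144 h (Mxd3, in place of Max and Mga) and 1 in DKO at 24 h (Mxi1; Mycn was lost). Leaving out 1 library gave 0 to 3 calls in WT at 144 h, 0 to 6 in DKO at 24 h (6 without DKO replicate 1 at 24 h) and 0 to 1 in DKO against WT at 72 h. It turned the sign of Max (range -0.10 to 0.33) and Mga (-0.20 to 0.33) in DKO at 72 h, and of Mnt in WT at 144 h (-0.020 to 0.13), in DKO at 24 h (-0.0042 to 0.49), and in DKO against WT at 0 h (-0.092 to 0.23) and 72 h (-0.14 to 0.18). With Mga among the repressors the activator to repressor ratio was 1.34, 1.04, 1.31 and 1.54 in WT and 1.01, 0.894 and 0.885 in DKO. Plain TPM calls were refitted with the block and without each library, alternatives chosen after seeing the data: the block ended none of the 13 it could be fitted to and added 9 calls, given above.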

Other observations

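The 14 spike-in factors were all ratios of whole numbers within a tolerance of 0.001: 76 divided by a whole number between 27 and 76. A step of 1 in that divisor changes every spike-in value of a library by 1.32% to 3.70%. The replicate factors of DKO at 24 h were 2.24 and 1.36 and those of DKO at 72 h 2.53 and 1.73, whereas both untreated WT libraries had 2.11. In DKO at 24 h the spike-in levels of Max were 195 and 120 and those of Mga 238 and 138, while their plain TPM were 87.1 and 88.8, and 106 and 102.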
